A study of Rattus norvegicus with 12 samples.

Results

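A set of 10 genes that code for receptors, surface glycoproteins and junction proteins of endothelial cells were followed through a rat hypothalamus RNA sequencing series. They were Kdr, Flt1, Tek, Cd93, Clec14a, Cd34, Egfl7, Cdh5, Pcdh12 and Cldn5, and they were 10 of the 17310 genes in the files. Each was found by its symbol, and each of the 10 passed the filter on low counts that left 12856 genes for testing. The genes had been chosen from measured values: their level in rats given high corticosterone against sham-operated rats was known beforehand. Every comparison that contains high Cort or sham libraries is therefore given for them as a description with no test. The members were tested in the 4 comparisons that use neither group.

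The tissue was hypothalamus of the PVH region, the part around the paraventricular nucleus, taken from wild type Wistar rats 12 weeks old, which the series title gives as male. There were 6 groups of 2 libraries. The high Cort group was given corticosterone, the main glucocorticoid of the rat, at a high level for 12 days. The 3 h acute and 1 h acute groups were sampled 3 h and 1 h after acute corticosterone. The supplemented ADX group had lost the adrenal glands and was given corticosterone, and the ADX group was studied 7 days after adrenalectomy. The sham group was sham-adrenalectomised. The labels do not give the dose or route of corticosterone, the length of the supplement, whether the acute groups had adrenal glands, a vehicle group, or whether 1 library came from 1 rat or a pool. The p-values below measure the spread between these libraries, which may be partly technical.

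As background, vascular endothelial growth factor (VEGF) signals through the receptor tyrosine kinase Kdr (VEGFR2), while Flt1 (VEGFR1) binds VEGF tightly with weak kinase activity and, as a soluble form, acts as a trap for it. Tek (Tie2) is the receptor of the angiopoietins, which stabilise or loosen vessels. Cd93 and Clec14a are C-type lectin-like transmembrane proteins of endothelium that both bind the matrix protein multimerin 2. Cdh5 (VE-cadherin) forms the adherens junctions of endothelial cells, Cldn5 is the main claudin of the tight junctions that seal the blood-brain barrier, and Pcdh12 is a protocadherin placed at endothelial contacts. ETS family transcription factors, which bind sites with the core GGAA, are central regulators of endothelial genes.

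Promoter sequence was available in the RefSeq table of build GRCr8 for 7 of the 10 genes, with 2 start sites for Egfl7 and therefore 8 windows of 250 bases before the start. Cd93, Cdh5 and Tek had no entry. The windows of 3 genes with lower levels in high Cort and that of Cldn5, whose level differed less, are shown 5′ to 3′ on the strand of the gene. They are examples, and the counts of the other windows follow. Capitals mark the ETS core GGAA or its reverse complement TTCC.
Kdr, chr14:32571813-32572062, plus strand: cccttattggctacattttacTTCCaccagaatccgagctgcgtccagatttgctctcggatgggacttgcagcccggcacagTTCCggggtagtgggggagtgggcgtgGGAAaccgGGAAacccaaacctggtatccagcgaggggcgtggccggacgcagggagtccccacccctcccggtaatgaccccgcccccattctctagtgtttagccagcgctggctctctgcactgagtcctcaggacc
Clec14a, chr6:81619557-81619806, minus strand: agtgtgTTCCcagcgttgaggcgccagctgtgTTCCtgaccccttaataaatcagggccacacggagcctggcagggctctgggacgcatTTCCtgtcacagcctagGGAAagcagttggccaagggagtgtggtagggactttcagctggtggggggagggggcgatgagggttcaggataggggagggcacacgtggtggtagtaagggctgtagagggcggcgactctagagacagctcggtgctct
Pcdh12, chr18:30370486-30370735, minus strand: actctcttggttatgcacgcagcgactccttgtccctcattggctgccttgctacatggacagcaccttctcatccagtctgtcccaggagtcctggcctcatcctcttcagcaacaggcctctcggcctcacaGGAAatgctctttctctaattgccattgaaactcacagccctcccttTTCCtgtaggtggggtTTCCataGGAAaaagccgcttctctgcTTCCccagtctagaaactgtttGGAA
Cldn5, chr11:95718599-95718848, minus strand: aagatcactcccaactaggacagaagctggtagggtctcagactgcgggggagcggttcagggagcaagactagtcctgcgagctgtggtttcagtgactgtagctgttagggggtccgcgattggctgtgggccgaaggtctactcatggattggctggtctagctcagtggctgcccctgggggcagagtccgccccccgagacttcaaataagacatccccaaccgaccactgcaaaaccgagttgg
The core occurred 4 times in the Kdr window, 4 times in that of Clec14a and 6 times in that of Pcdh12. It occurred 0 times in the Cldn5 window. The other windows held 3 (Flt1) and 3 and 2 (Egfl7) cores, and that of Cd34, whose level in high Cort differed more than theirs, held 1. Of 33469 promoter windows of the same length, 93.2% held at least 1 core on either strand, so its presence sets no member apart. The longer form CCGGAA, which contains the core, was found in 12.6% of all windows and, among the members, in that of Kdr. The full consensus element of the glucocorticoid receptor, the inverted repeat of AGAACA with 3 bases between, was in none of the 8 windows and in 0.012% of all. AGAACA alone was in 1 Egfl7 window, against 17.5% of all, and the AP-1 site TGACTCA was in none of the 8, against 4.05% of all. These are matches of letters on both strands and say nothing of binding.

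**Figure D1:**
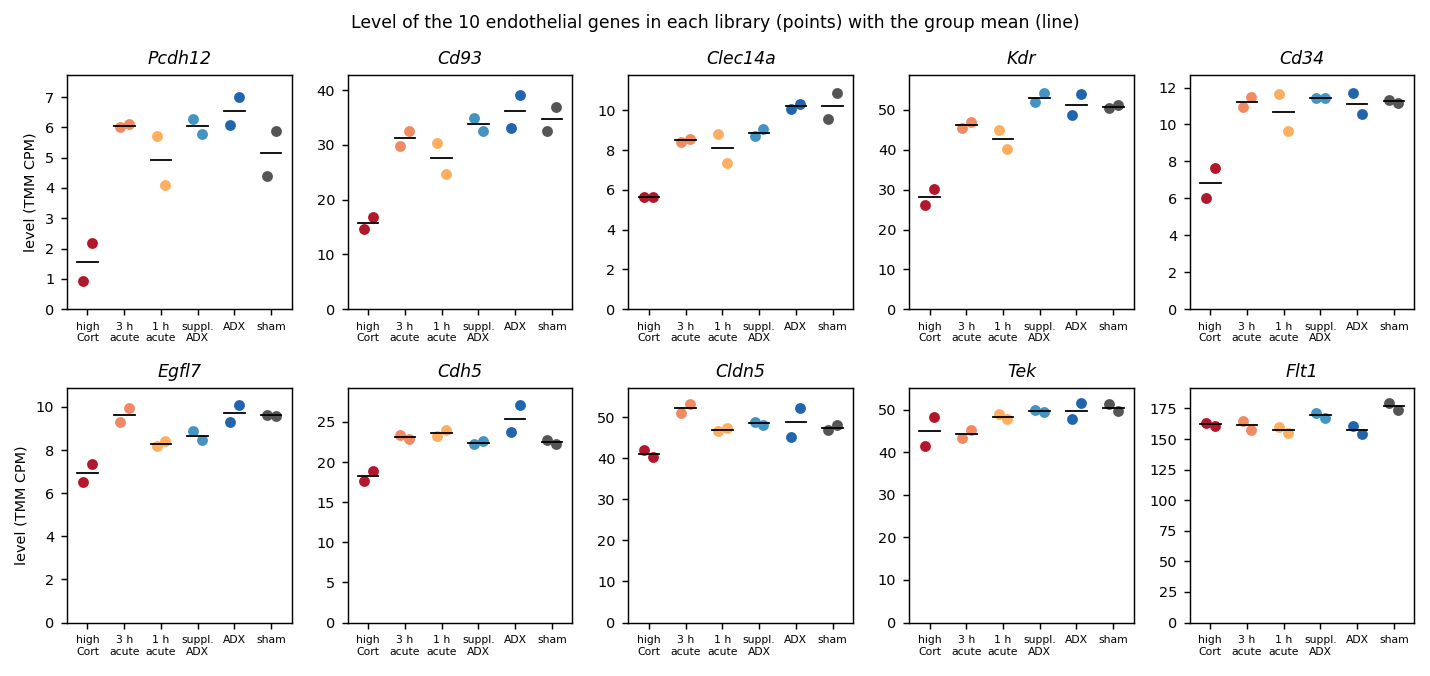
TMM-scaled CPM, fragment counts relative to library size (y axes, from 0, a scale per gene), of the 10 genes in each library (points), with the mean of each group (line), in high Cort, 3 h acute, 1 h acute, supplemented ADX, ADX and sham. In the upper row both high Cort points lie under every other point. In the lower row this holds for Egfl7, Cdh5 and Cldn5 but not for Tek or Flt1.

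Levels were compared between genes per transcript length with the deposited FPKM, in which fragments are divided by length and depth. In high Cort libraries, Cldn5 stood highest at 34.3 and 32.9 FPKM, followed by Flt1 at 24.7 and 24.4 and Tek at 9.36 and 10.9. In sham libraries the order began the same way, with Cldn5 at 38.3 and 39.1, Flt1 at 27.5 and 26.4, then Cd34 at 11.9 and 11.7 and Tek at 11.7 and 11.2, which differed by little. At the low end Clec14a had 1.88 and 1.89 FPKM in high Cort libraries, against 3.22 and 3.64 in sham. Pcdh12 was lowest, at 0.229 and 0.540 FPKM in high Cort and 1.09 and 1.45 FPKM in sham. The junction claudin was thus the most abundant of the 10 per length and the protocadherin the least. The depth behind these values was between 23 fragments (Pcdh12 in high Cort replicate 1) and 6265 fragments (Flt1) per gene and library.

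All 10 genes had a lower mean in high Cort than in sham, and in each the 2 groups did not overlap. Both high Cort libraries also lay under all 10 other libraries in 8 of the 10 genes, the exceptions being Flt1 and Tek. Over all genes tested, 16.9% were lower in high Cort with groups that did not overlap, and 5.08% had both high Cort libraries below all others. Nothing is read from these counts, because this contrast chose the genes. The median log2 fold change was -0.59 over the 10 genes, against 0.01 over all genes tested. In bulk tissue, fewer endothelial cells and less RNA of a gene per cell cannot be told apart.

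The members were parted at a log2 fold change of -0.5 in high Cort against sham. The lower side also needed both high Cort libraries below both sham libraries, and the share of all genes was counted the same way. Nothing is read from that share, because this contrast chose the genes. The lower side held 5 of the 10, against 1.73% of all genes tested: Pcdh12 (-1.67 ± 0.29 SE), Cd93 (-1.14 ± 0.12), Clec14a (-0.86 ± 0.11), Kdr (-0.85 ± 0.08) and Cd34 (-0.71 ± 0.12), the nearest to the dividing value on that side. The nearest on the other side was Egfl7 (-0.47 ± 0.10), followed by Cdh5 (-0.30 ± 0.08), Cldn5 (-0.21 ± 0.06), Tek (-0.16 ± 0.07) and Flt1 (-0.13 ± 0.04).

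Of the VEGF receptors, Kdr had 26.1 and 30.1 CPM (fragment counts scaled to library size by TMM) in high Cort libraries. It had 45.6 and 46.9 CPM at 3 h acute, 44.9 and 40.3 at 1 h acute, 51.9 and 54.2 in supplemented ADX, 48.7 and 53.9 in ADX and 50.5 and 51.2 in sham. The high Cort libraries stood well under the rest, and the acute libraries lay between them and the supplemented ADX, ADX and sham libraries with no overlap. Flt1 had 163 and 161 CPM in high Cort, 165 and 157 at 3 h acute, 160 and 155 at 1 h acute, 171 and 168 in supplemented ADX, 161 and 154 in ADX and 180 and 174 in sham. Its high Cort values lay inside the range of the other libraries, and sham was highest. The ratio of Flt1 to Kdr in FPKM, formed within each library, was 5.50 and 4.72 in high Cort. It was 3.20 and 2.96 at 3 h acute, 3.13 and 3.38 at 1 h acute, 2.91 and 2.73 in supplemented ADX, 2.91 and 2.52 in ADX and 3.14 and 2.98 in sham. The 2 receptors of the same ligand thus stood in a different proportion in high Cort than in any other library.

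The ligands and co-receptors of this system were not members, but like all lists here they were written with earlier results of these data known, so their calls are not independent evidence. Of 15 VEGF and angiopoietin genes tested, 0 rose and 1 fell in high Cort against sham, with a median log2 fold change of -0.14 against 0.01 over all genes. The gene that fell was Vegfa, the main ligand of Kdr, with 125 and 132 CPM in high Cort libraries and 148 and 154 CPM in sham (-0.24 ± 0.05, adjusted p = 0.0208, edgeR's quasi-likelihood test). Vegfa lost its call without high Cort replicate 1 and without either sham replicate, where its adjusted p reached 0.347, and kept its sign in 14 of 14 alternatives. Pgf, a ligand of Flt1, had 5.22 and 3.53 CPM in high Cort and 2.67 and 3.00 CPM in sham (0.61 ± 0.20, adjusted p = 0.268). Vegfb was at -0.14 (adjusted p = 0.709), Vegfc, a ligand of Flt4, at -0.02 (adjusted p = 0.995) and Flt4 itself at -0.16 (adjusted p = 0.867). The neuropilin co-receptors Nrp1 and Nrp2 were at -0.17 (adjusted p = 0.493) and 0.15 (adjusted p = 0.545). Without high Cort replicate 2, Nrp1 was called (-0.31, adjusted p = 0.0376, edgeR).

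Tek had 41.6 and 48.4 CPM in high Cort libraries and 51.5 and 49.6 CPM in sham, with the other 8 libraries between 43.4 and 51.5 CPM. High Cort replicate 1 was the lowest of all, while replicate 2 lay inside the range of the rest, and without replicate 1 the log2 fold change against sham was -0.07 instead of -0.16. Its angiopoietin ligands did not pass the test, with Angpt1 at -0.21 (adjusted p = 0.637), Angpt2 at 0.32 (adjusted p = 0.837) and Angpt4 at -0.03 (adjusted p = 0.995). Tie1, the co-receptor of Tek, was at -0.37 (adjusted p = 0.0892), and it was called without high Cort replicate 2 (-0.54, adjusted p = 0.00701) and by DESeq2. The ratio of Tek to Tie1 in FPKM was 1.05 and 0.993 in high Cort and 0.924 and 0.839 in sham, against values between 0.697 and 0.978 in the other libraries.

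The C-type lectin-like pair differed in the same direction in high Cort. Cd93 had 14.7 and 16.8 CPM in high Cort, 29.8 and 32.5 at 3 h acute, 30.3 and 24.8 at 1 h acute, 34.9 and 32.6 in supplemented ADX, 33.1 and 39.2 in ADX and 32.6 and 36.9 in sham. The lowest library outside high Cort was 1 h acute replicate 2, the library of lowest depth. Clec14a had 5.62 and 5.66 CPM in high Cort, 8.43 and 8.55 at 3 h acute, 8.83 and 7.37 at 1 h acute, 8.73 and 9.04 in supplemented ADX, 10.1 and 10.3 in ADX and 9.57 and 10.9 in sham. Its high Cort replicates were nearly equal, and the acute and supplemented ADX libraries all stood under the ADX and sham ones.

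Cd34, a sialomucin of endothelial and blood stem cells, had 6.03 and 7.62 CPM in high Cort, 10.9 and 11.5 at 3 h acute, 11.7 and 9.65 at 1 h acute, 11.4 and 11.4 in supplemented ADX, 11.7 and 10.6 in ADX and 11.3 and 11.2 in sham. Outside high Cort the 10 libraries lay between 9.65 and 11.7 CPM. Egfl7, a secreted matrix protein of endothelium, had 6.51 and 7.35 CPM in high Cort and 9.65 and 9.59 CPM in sham, and between 8.18 and 10.1 CPM in the other libraries. It was the nearest to the dividing value, and without high Cort replicate 2 it lay on the lower side with -0.57, which made 6 members there.

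Pcdh12 showed the lowest ratio of high Cort to sham and the widest spread. It had 0.931 and 2.2 CPM in high Cort, from 23 and 66 fragments, and 4.39 and 5.89 CPM in sham, from 112 and 161 fragments. The other libraries gave 6.02 and 6.10 at 3 h acute, 5.71 and 4.10 at 1 h acute, 6.29 and 5.79 in supplemented ADX and 6.09 and 7.00 in ADX. Both high Cort values were under every other, but high Cort replicate 2 had more than replicate 1 by a larger ratio than in any other member. The log2 fold change was -2.47 without high Cort replicate 2 and -1.24 without high Cort replicate 1, and -0.72 on the scale of log2(FPKM + 1), which understates the change of a gene this low.

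The structural junction genes differed less. Cdh5 had 17.6 and 18.9 CPM in high Cort and 22.8 and 22.2 CPM in sham, with 22.3 to 27.1 CPM elsewhere. Cldn5 had 41.9 and 40.4 CPM in high Cort, 51.1 and 53.3 at 3 h acute, 46.7 and 47.3 at 1 h acute, 49.0 and 48.2 in supplemented ADX, 45.3 and 52.2 in ADX and 46.8 and 48.0 in sham. For both genes the high Cort libraries were the lowest of the 12. The ratio of Kdr to Cldn5 in FPKM was 0.131 and 0.157 in high Cort and 0.229 and 0.226 in sham, and that of Cd93 to Cldn5 was 0.0926 and 0.110 in high Cort and 0.185 and 0.205 in sham. Of 27 other adherens and tight junction genes tested in high Cort against sham, edgeR called 0 in either direction and DESeq2 called 1, with 7 at an unadjusted p under 0.05 and a median log2 fold change of -0.03. Among them were the tight junction genes Ocln (0.17, adjusted p = 0.646) and Tjp1 (-0.05, adjusted p = 0.898).

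**Figure D2:**
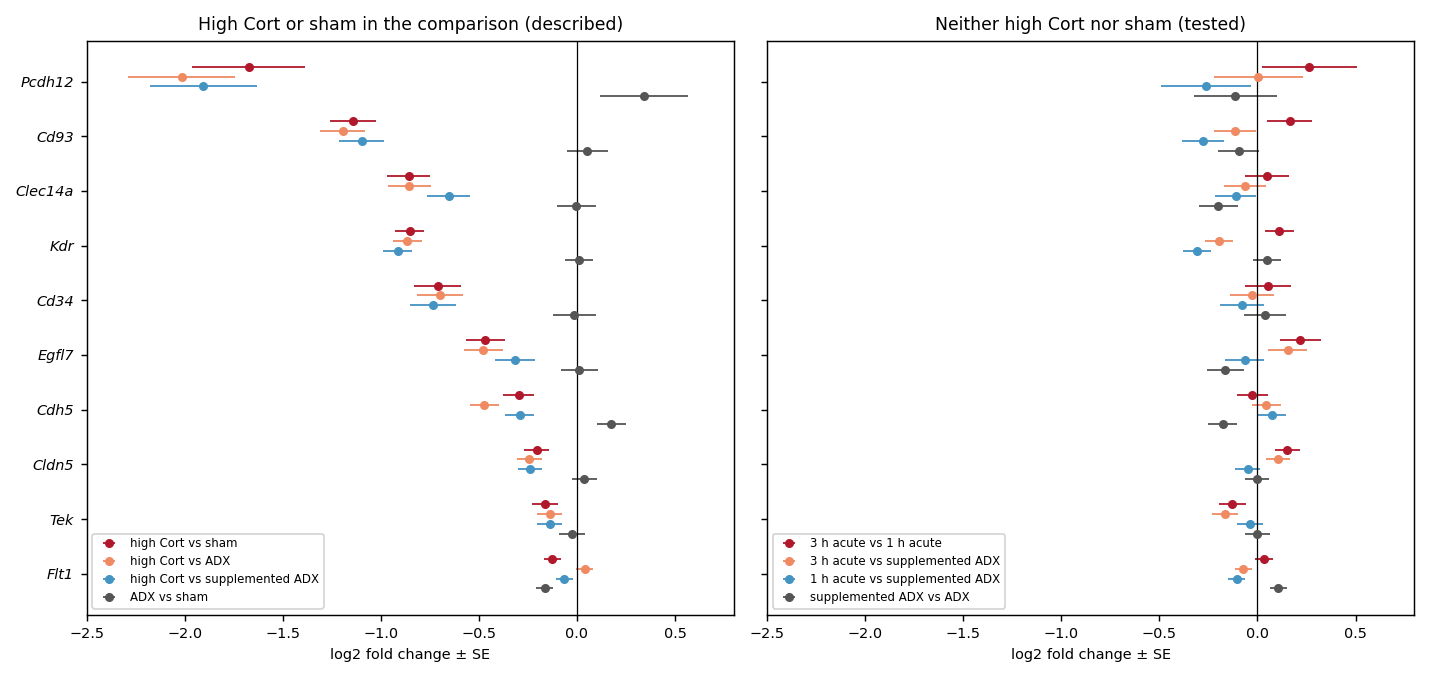
Log2 fold change (x axis) with its standard error for the 10 genes (rows), at left in comparisons that contain high Cort or sham libraries, given without a test, and at right in the 4 comparisons that contain neither. The high Cort points run down to -2.02 for Pcdh12 (-2.82 without high Cort replicate 2), while the points at right lie between -0.31 and 0.27.

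High Cort was also set against the 2 adrenalectomised groups. Against ADX the log2 fold change of high Cort was -2.02 for Pcdh12, -1.19 for Cd93, -0.87 for Kdr, -0.85 for Clec14a and -0.70 for Cd34. Cdh5 (-0.47) and Egfl7 (-0.48) were near each other, and Cldn5 (-0.24), Tek (-0.14) and Flt1 (0.04) were nearest to no difference. Both high Cort libraries were below both ADX libraries in 8 of the 10 genes, against 24.1% of all genes tested, and above them in 1, Flt1, against 29.7% of all. Pcdh12 was at -2.82 against ADX without high Cort replicate 2, and on the scale of log2(FPKM + 1) it was at -0.93. Clec14a ran from -1.06 to -0.62 against ADX over the alternatives. Against supplemented ADX the values were -1.90 for Pcdh12, -1.10 for Cd93 and -0.91 for Kdr. Both high Cort libraries were below both supplemented ADX libraries in all 10 genes, against 22.1% of all genes. The comparison with supplemented ADX crosses the 2 processing runs inferred for the authors' values and rests on unscaled fragments. Leaving out a high Cort library put Pcdh12 at -1.47 (without replicate 1) and -2.71 (without replicate 2) against supplemented ADX. Markers of other tissue differed too: thalamus markers had a median of 0.54 against ADX and 0.51 against supplemented ADX, with 0 of 13 called. Of 6 paraventricular markers, 5 fell in each by edgeR, and the share of all genes called there is not given here. The part of these markers in the members' values was not tested. Both comparisons share the high Cort libraries with the contrast that chose the genes, so the members' values and counts stand beside each other, and nothing is read from them.

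In ADX against sham, the members' log2 fold changes lay between -0.17 (Flt1) and 0.34 (Pcdh12), with a median of 0.01. In 1 member, Flt1, both ADX libraries were below both sham libraries, against 25% of all genes. In 2 members, Pcdh12 and Cdh5, both were above, against 22.2% of all genes. The remaining comparisons with sham cross the 2 processing runs inferred for the authors' values and rest on unscaled fragments. In 3 h acute the members' fold changes ran from -0.27 to 0.23, with both libraries below both sham libraries in 5 genes (Kdr, Flt1, Tek, Cd93 and Clec14a), against 27.6% of all genes, and above them in 3 (Pcdh12, Cdh5 and Cldn5), against 25.4%. In 1 h acute they ran from -0.32 (Cd93) to 0.07 (Cdh5), with both libraries below sham in 6 genes, the same 5 and Egfl7, against 29.1% of all, and above it in 1, Cdh5, against 27.5%. In supplemented ADX they ran from -0.20 to 0.23, with both libraries below sham in 3 genes (Flt1, Clec14a and Egfl7), against 22.5% of all, and above it in 3 (Kdr, Cd34 and Cldn5), against 19%.

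Thalamus markers moved with the acute comparisons: of 13, 8 fell in 1 h acute against sham (median log2 fold change -0.85) and 4 fell in 3 h acute against sham (median -0.69), by edgeR. Other lists had calls there as well. In 1 h acute against sham 5 of 11 neuron markers fell, and of 27 other junction genes 4 rose and 3 fell. Of 23 sprouting and Notch genes 2 rose and 2 fell, and of 16 blood-brain barrier transport genes 2 rose and 2 fell. The share of all genes called in 1 h or 3 h acute against sham is not given here, so nothing is read from the list counts of either comparison. In 3 h acute against sham 3 of the 11 neuron markers and 2 of 16 blood-brain barrier transport genes fell. There 4 of 6 paraventricular markers rose (median 0.56), as did 3 of 23 sprouting and Notch genes and 2 of 5 red cell genes. The median of the thalamus markers was -0.42 in supplemented ADX and -0.45 in ADX against sham, with none of the 13 called. With the thalamus score in the fit, Cd93 was at 0.14 and Clec14a at 0.05 in 1 h acute against sham, in place of -0.32 and -0.32, and Pcdh12 was at 0.76 in place of -0.03. In 3 h acute against sham Pcdh12 was at 0.89 with the score, in place of 0.23. The score differs between the groups, and the part of thalamus tissue in the members' values was not tested.

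The level of the members was also set against 26 other endothelial identity genes, such as Pecam1, Tie1, Erg and Vwf, summed in the same library. The sum was 702 and 750 CPM in high Cort and 799 and 760 CPM in sham, with 754 to 797 CPM in the other 8 libraries, so high Cort was lowest but close. Kdr, Cd93, Clec14a, Cd34 and Pcdh12 together came to 7.61% and 8.30% of that sum in high Cort, against 12.7% and 13.6% at 3 h acute, 12.8% and 11.2% at 1 h acute, 14.2% and 14.99% in supplemented ADX, 14.2% and 15.2% in ADX and 13.6% and 15.3% in sham. Flt1, Tek, Cldn5, Cdh5 and Egfl7 together came to 38.6% and 36.8% of it in high Cort and to between 36.2% and 39.9% in the others. The first 5 genes were thus lower in high Cort relative to these 26 genes as well. The summed percentage of the second 5 was under both sham libraries and inside the range of the other groups. Flt1 alone gave 23.24% and 21.45% in high Cort, so it weighs most in that sum. Taken singly, Egfl7 (0.929% and 0.980%) and Cdh5 (2.51% and 2.52%) were lower in high Cort than in all 10 other libraries. The lowest of those were at 1.03% for Egfl7 and 2.79% for Cdh5. This did not hold for Flt1, Tek or Cldn5. In CPM the sum of the second 5 was 271 and 276 in high Cort, below all 10 other libraries. Since high Cort against sham had divided the members, all these statements are descriptions.

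**Figure D3:**
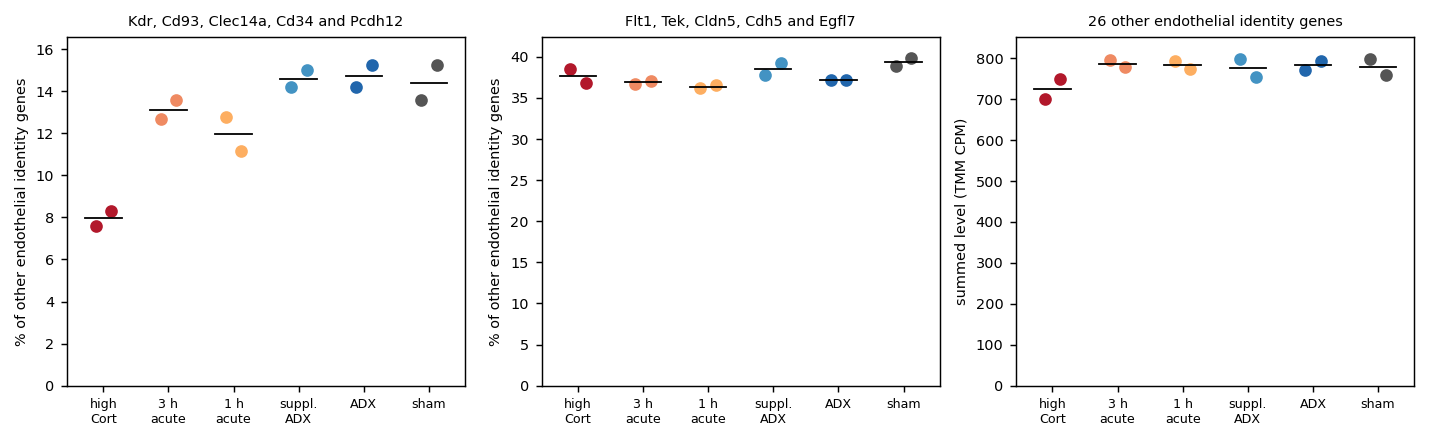
Left and middle, the summed level of Kdr, Cd93, Clec14a, Cd34 and Pcdh12 and that of Flt1, Tek, Cldn5, Cdh5 and Egfl7 as a percentage of 26 other endothelial identity genes in the same library; right, the summed level of those 26 genes in TMM-scaled CPM. Points are libraries and lines group means, and each y axis starts at 0. High Cort stands apart at left (7.61% and 8.30%), lies within the others in the middle, and is slightly lower at right. Flt1 weighs most in the middle sum, and Egfl7 and Cdh5 taken singly were lowest in high Cort.

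Among the 26 identity genes themselves, 1 rose and 1 fell in high Cort against sham, against 0.513% and 0.358% of all genes tested, with a median log2 fold change of -0.20. Tinagl1, which codes for a matrix protein, rose (0.82 ± 0.13, adjusted p = 0.00637), and Mcam, an adhesion molecule of vessels, fell (-0.32 ± 0.07, adjusted p = 0.0426, both edgeR). Both lost the call without high Cort replicate 1 and without sham replicate 1, and Mcam also without sham replicate 2. Pecam1, an adhesion molecule used as a standard endothelial marker, was at -0.02 (adjusted p = 0.982). The ratio of Kdr to Pecam1 in FPKM was 0.442 and 0.535 in high Cort and 0.855 and 0.891 in sham, while that of Cldn5 to Pecam1 was 3.37 and 3.4 in high Cort and 3.74 and 3.94 in sham. Of the 26, 16 had both high Cort libraries below both sham libraries, against 16.9% of all genes tested, and 1 had both above, against 20.9%.

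Other vascular lists moved in part. Of 23 sprouting and Notch genes, 0 rose and 3 fell: the membrane matrix protease Mmp14 (-1.30 ± 0.14, adjusted p = 0.00111), the apelin receptor Aplnr (-0.87 ± 0.16, adjusted p = 0.0185) and Mcam. Mmp14 had 7.61 and 9.95 CPM in high Cort and 22.2 and 21.4 CPM in sham and was called in 14 of 14 alternatives, while Aplnr lost its call without high Cort replicate 1 and without sham replicate 2. Of 16 blood-brain barrier transport genes, 2 rose and 4 fell. The efflux pump gene Abcg2 (40.3 and 38.2 CPM in high Cort, 20.04 and 21.7 CPM in sham, adjusted p = 1.93e-05) and the lysolipid transporter gene Mfsd2a (adjusted p = 0.00444) rose, so genes of brain endothelium went both ways. The thyroid hormone and anion carrier gene Slco1c1, the monocarboxylate carrier gene Slc16a1 and the organic anion carrier gene Slc22a8 fell, with adjusted p-values of 0.00205, 0.00205 and 0.00637, and so did Itm2a (0.013). Of these 6, Abcg2 kept its call whichever of the 4 libraries was left out, and the other 5 lost it without high Cort replicate 1. Mfsd2a, Slc22a8 and Itm2a also lost it without sham replicate 2, and Itm2a without sham replicate 1.

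Among markers of neighbouring cells, mural cells had 0 genes that rose and 1 that fell of 14. That gene was Pdgfrb, the PDGF receptor of pericytes (-0.30 ± 0.06, adjusted p = 0.0246), whose call was lost without any 1 of the 4 libraries. The summed level of the 14 mural markers was 403 and 417 CPM in high Cort and 441 and 438 CPM in sham. The 5 red cell genes, of which edgeR called 0 and DESeq2 1, with 2 at an unadjusted p under 0.05, summed to 26.3 and 22.9 CPM in high Cort and 36.8 and 42.6 CPM in sham, with a median log2 fold change of -0.61. Arterial and venous genes (10 tested) and leukocyte adhesion genes (6 tested) had 0 calls in either direction by edgeR and by DESeq2, with 3 and 1 genes at an unadjusted p under 0.05. Of 13 microglia and macrophage markers 1 rose (Cd163, the scavenger receptor of perivascular macrophages, 1.33 ± 0.17, adjusted p = 0.00126) and 0 fell, and of 12 astrocyte markers 1 rose and 2 fell. The part of mural cells and of blood left in the vessels in the members' values was not tested.

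**Figure D4:**
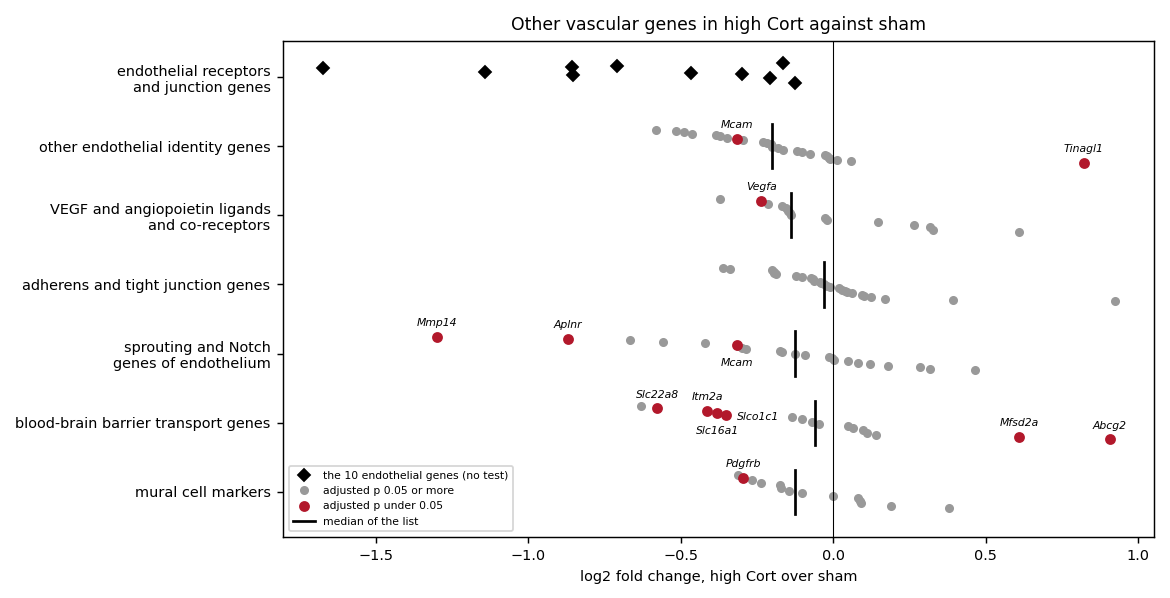
Log2 fold change of high Cort over sham (x axis) for the 10 endothelial genes (diamonds) and for 6 lists of other vascular genes (circles, 1 per gene, red where the adjusted p was under 0.05, with the gene's name); vertical bars are list medians, and vertical position within a row has no meaning. The medians of the 6 lists lie between -0.20 and -0.03, and the red points lie on both sides of 0.

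In the comparisons that could be tested, no member was called. For supplemented ADX against ADX, 0 of 10 members were called, against 0.0311% of all genes tested, and 2 had an unadjusted p under 0.05, against 4.05% of all genes. These were Flt1, with 171 and 168 CPM in supplemented ADX and 161 and 154 CPM in ADX (0.11 ± 0.04, adjusted p = 1), and Cdh5, with 22.3 and 22.6 CPM in supplemented ADX and 23.7 and 27.1 CPM in ADX (-0.18 ± 0.07, adjusted p = 1, both edgeR's quasi-likelihood test). This comparison crosses the 2 processing runs inferred for the authors' values, so it rests on unscaled fragments. DESeq2 also called 0 of the 10 here and in the 3 comparisons below.

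For 1 h acute against supplemented ADX, 0 of 10 members were called, against 0.0467% of all genes, and 3 had an unadjusted p under 0.05, against 14.7% of all. Kdr, with 44.9 and 40.3 CPM at 1 h acute and 51.9 and 54.2 CPM in supplemented ADX, had the smallest p (-0.31 ± 0.07, 95% interval -0.46 to -0.16, adjusted p = 0.126). Without 1 h acute replicate 1 it was called (-0.40, adjusted p = 0.0207), and with a score of thalamus genes as a covariate it was at -0.18 (adjusted p = 0.954). Cd93 (-0.28 ± 0.11, adjusted p = 0.28) and Flt1 (-0.11 ± 0.04, adjusted p = 0.28, both edgeR) were the other two. In 7 members both 1 h acute libraries were below both supplemented ADX libraries, against 23.5% of all genes, and in 1, Cdh5, both were above, against 23% of all. Thalamus markers moved with this comparison: their mean log2 CPM was 6.71 and 6.12 at 1 h acute and 6.93 and 6.96 in supplemented ADX. The thalamus borders the dissected region, and its part in the members' values was not tested, as the score differs between the groups. With the thalamus score in the fit, Clec14a (0.10), Cd34 (0.04) and Pcdh12 (0.17) had the opposite sign.

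For 3 h acute against supplemented ADX, 0 of 10 members were called, against 0.00778% of all genes, and 2 had an unadjusted p under 0.05, against 12.5% of all. They were Kdr, with 45.6 and 46.9 CPM at 3 h acute and 51.9 and 54.2 CPM in supplemented ADX (-0.20 ± 0.07, adjusted p = 0.296), and Tek, with 43.4 and 45.2 CPM at 3 h acute and 49.9 and 49.5 CPM in supplemented ADX (-0.17 ± 0.07, adjusted p = 0.337, both edgeR). In 5 members both 3 h acute libraries lay below, against 23.6% of all genes, and in 3 both lay above, against 22.2% of all. Thalamus markers averaged 6.68 and 6.59 at 3 h acute, and with their score in the fit Cd93 (0.06), Clec14a (0.08) and Cd34 (0.05) changed sign. Here too the part of thalamus tissue was not tested.

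For 3 h acute against 1 h acute, 0 of 10 members were called, against 0.0233% of all genes, and 1 had an unadjusted p under 0.05, against 10.6% of all. This was Cldn5, with 51.1 and 53.3 CPM at 3 h acute and 46.7 and 47.3 CPM at 1 h acute (0.15 ± 0.06, 95% interval 0.01 to 0.29, adjusted p = 0.419, edgeR). Egfl7 was next (0.22 ± 0.10, adjusted p = 0.472). A p that misses the threshold does not show that the groups were alike. The interval of Pcdh12, the least precise member, ran from -0.27 to 0.79, and that of Flt1, the most precise, from -0.06 to 0.13.

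The members were also compared with each other across libraries, as a description. Over the 12 libraries, which share their depth and normalisation, the 10 pairs among the 5 genes of the lower side had a median Pearson r of 0.94 in log2 CPM, the 25 mixed pairs 0.76 and the 10 pairs among the others 0.36. High Cort libraries set much of this: over the other 10 libraries the medians were 0.52, 0.27 and 0.12. Of 10170 other genes with a mean of at least 5 CPM, the 5 most like Kdr over the 12 libraries were Gal3st1 (r = 0.96), Olfml2a (0.95), Itm2a (0.94), Fli1 (0.93) and Enpp6 (0.93). Without high Cort, r was 0.91 for Gal3st1 and 0.53 for Olfml2a, 0.58 for Itm2a, 0.57 for Fli1 and 0.66 for Enpp6. The 5 most like Cldn5 were Elk3 (0.94), Dysf (0.94), Tp53i11 (0.92), Grn (0.90) and Trh (0.90), and without high Cort they lay between 0.76 and 0.86.

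The libraries held 17674159 (1 h acute replicate 2) to 36249006 (supplemented ADX replicate 1) fragments in genes. The paraventricular markers Sim1 (36.5 to 54.0 CPM), Otp (21.7 to 41.0 CPM), Avp (58.1 to 201 CPM) and Crh (2.35 to 26.9 CPM) were present in every library. They were not even across groups: in high Cort against sham all 6 paraventricular markers had both libraries lower (median log2 fold change -0.51), 6 had an unadjusted p under 0.05, edgeR called 1 and DESeq2 4. The gene called by edgeR was Crh (-1.85 ± 0.27, adjusted p = 0.017), and it lost the call by limma on log2(FPKM + 0.1), when the 4 libraries were fitted alone, and on leaving out sham replicate 2 or high Cort replicate 1. Of 9 oligodendrocyte markers 8 had a negative log2 fold change (median -0.19), with 0 called by edgeR, 2 by DESeq2 and 2 at an unadjusted p under 0.05. The part of these markers in the members' values was not tested. High Cort replicate 1 had 3568 CPM of the ribosomal RNA gene Rn18s, against 563 to 1718 CPM in the other 11 libraries. Without this library the log2 fold changes against sham were -1.06 for Cd93, -0.86 for Clec14a, -0.77 for Kdr and -0.57 for Cd34. They were -0.39 for Egfl7, -0.26 for Cdh5, -0.24 for Cldn5 and -0.14 for Flt1, and those of Pcdh12 and Tek are given above. The part of this library in the members' values was otherwise not tested.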

How the data were processed

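Messenger RNA libraries from 12 hypothalamic samples in 6 groups were used. The deposited files, 1 per library, have the columns of Cuffdiff read group tables, per the file headers. Its raw fragments are expected counts per gene that the authors left unscaled, and the 0.751% with a fraction were rounded, a change of 0.5 at the largest (none in the 10 members). Its deposited FPKM values were taken to be scaled by the authors within 2 runs. High Cort, ADX and sham were assigned to 1 run, and 3 h acute, 1 h acute and supplemented ADX to the other. This split was inferred from condition codes that repeat between the 2 sets of groups. The submitters' processing notes name CASAVA 1.8.2, TopHat2 2.1.1, Cufflinks 2.2.1 and build rn6; annotation and roles: not given in the sources used here.

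Counts were tested in R 4.3.3 with edgeR 4.0.16: filterByExpr (minimum count 10, minimum total 15), TMM scaling, and 1 robust quasi-likelihood fit of all 12 libraries with a coefficient per group (6 residual degrees of freedom, median prior 8.9, common BCV 0.047). The 2-sided p-values were adjusted over all 12856 genes (Benjamini-Hochberg), and a call needed an adjusted value under 0.05. For 2 libraries against 2, no permutation p can be under 0.333. Values after ± are SE of the fit. Intervals are 95%.

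The members and the gene lists were chosen with earlier results of these data known. Named were all members, at most 4 called genes per list, the VEGF and angiopoietin ligands and receptors, and the 5 genes most like Kdr and Cldn5; Pecam1, Ocln, Tjp1, Slc22a8 and Itm2a were added after their values were seen. Fragments were not matched to coordinates, and promoter windows come from RefSeq (GRCr8). Alternatives were RLE scaling, no filter or a stricter one (4 or more samples with a CPM of 1 or more), a replicate block, a thalamus score, DESeq2 1.42.0, limma 3.58.1 on log2(FPKM + 1) or log2(FPKM + 0.1), fits of fewer libraries and leaving out each library in turn. The scripts were tested on simulated data.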

Additional observations from a re-analysis of the deposited data

How the results depend on the processing

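In high Cort against sham, members kept the negative sign in 140 of 140 recomputed values. On the lower side were 5 members in each setting but 1: 6 without high Cort replicate 2. This contrast chose the genes and the values are refits of the same libraries, so nothing is read from these counts. Of 530 recomputed member values in the 4 tested comparisons, 14 took another sign and 1 was newly called; 0 members were called in each setting except 1 h acute against supplemented ADX, where leaving out a library gave 0 to 1. Signs were compared after rounding to 2 decimals, so members whose value in the main fit rounded to 0 could not be counted. Such members took both signs over the settings. They were Cldn5 (-0.101 to 0.102) and Tek (-0.050 to 0.054) in supplemented ADX against ADX. Pcdh12 (-0.053 to 0.304) in 3 h acute against supplemented ADX was another. The counted values with another sign were as follows. For supplemented ADX against ADX, leaving out a library gave Kdr -0.021 to 0.125, Cd93 -0.213 to 0.032 and Cd34 -0.034 to 0.116; the signs turned without ADX replicate 1 for Kdr and without ADX replicate 2 for the others. With the thalamus score, 1 h acute against supplemented ADX gave Clec14a 0.097, Cd34 0.037 and Pcdh12 0.173, 3 h acute against supplemented ADX gave Cd93 0.056, Clec14a 0.076 and Cd34 0.050, and 3 h acute against 1 h acute gave Clec14a -0.022. Leaving out a library gave Cd34 -0.244 to 0.031 in 1 h acute and -0.063 to 0.009 in 3 h acute, both against supplemented ADX (other sign without 1 h acute replicate 2 and 3 h acute replicate 1). In 3 h acute against 1 h acute it gave Clec14a -0.054 to 0.207 and Cd34 -0.054 to 0.221 (other sign without 1 h acute replicate 2). Among the ligand genes, in alternatives added after the data were seen, high Cort against sham gave Vegfc 0.008 by limma on log2(FPKM + 0.1) and Angpt4 0.061 with the thalamus score. Leaving out a library gave Vegfc -0.273 to 0.283, Angpt2 -0.066 to 0.848 and Angpt4 -0.388 to 0.288.

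Counts of called genes moved more. The count for high Cort against sham was 112, and it was 187 with the thalamus score, 46 in a fit of the 4 libraries, 22 and 18 by limma with a pseudocount of 1 and 0.1, and 23 to 121 on leaving out a library (23 without high Cort replicate 1, 40 without sham replicate 2). For supplemented ADX against ADX it was 4, and 10 with the thalamus score, 13 by DESeq2, 33 in a fit of the 4 libraries and 0 to 4 on leaving out a library (0 without ADX replicate 2 or supplemented ADX replicate 1). For 1 h acute against supplemented ADX it was 6, and 16 with no filter, 3 with the replicate block, 0 with the thalamus score, 76 by DESeq2, 18 in a fit of 1 run and 1 to 624 on leaving out a library (624 without 1 h acute replicate 1, 1 without 1 h acute replicate 2 or supplemented ADX replicate 2, 2 without supplemented ADX replicate 1). For 3 h acute against supplemented ADX it was 1, and 20 with no filter, 0 with the thalamus score, 33 by DESeq2, 154 in a fit of the 4 libraries, 2 in a fit of 1 run, 2 by limma with a pseudocount of 1 and 0 without any 1 library. For 3 h acute against 1 h acute it was 3, and 5 with no filter, 24 by DESeq2, 9 in a fit of the 4 libraries, 10 in a fit of 1 run, 10 by limma with either pseudocount and 0 to 35 on leaving out a library (35 without 1 h acute replicate 1, 6 without 3 h acute replicate 1, 0 without 3 h acute replicate 2). The causes were not tested. A library left alone in its group was assumed to vary like the others.

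The replicate numbers did not pair the libraries: of 15 pairs of groups, 2 had a correlation of deviations over 0.1 (range -0.38 to 0.15). With the replicate block the calls were 105 for high Cort against sham, 4 for supplemented ADX against ADX, 3 for 1 h acute against supplemented ADX, 1 for 3 h acute against supplemented ADX and 4 for 3 h acute against 1 h acute, with 0 members in the 4 tested comparisons. Depth limits Pcdh12 most, at 23 fragments in 1 library.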
